A study of Mus musculus with 18 samples.

Results

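Transcripts of astrocytes were examined in RNA sequencing counts of striatal microglia, which were isolated with beads that bind CD11b, a protein on the surface of myeloid cells such as microglia. The 38 genes were taken by symbol from a list of transcripts that mark astrocytes, all 38 were found among the 55536 genes of the count table, and all 38 passed the filter on low counts in every comparison. The list was drawn up with earlier results of these samples known, and many of its genes stand in the study's own list of genes that differ between Q175 and WT microglia, so that their direction in that comparison is not independent evidence. All mice were C57BL/6 in strain. The samples were 5 WT, 3 Tyrobp-KO, 5 Q175 and 5 Q175;Tyrobp-KO. Q175 mice carry 1 copy of an expanded human HTT exon 1 knocked into the mouse Htt gene and are a model of Huntington's disease, and Tyrobp-KO mice lack Tyrobp (DAP12), the signalling adaptor of TREM2 and other myeloid receptors. The deletion is constitutive, so that it is present in all cells of the mouse and not in microglia alone. The labels give no age for these samples and the study calls the mice adult. Females gave 1 WT, 2 Tyrobp-KO, 4 Q175 and 2 Q175;Tyrobp-KO samples by the labels, and all other samples were male, which leaves sex unequal between Q175 and WT. Each sample is named here by its group and the number in its label, and each group's samples are always given in the order of these numbers: WT 1, 2, 6, 7 and 8, Tyrobp-KO 15, 19 and 20, Q175 3, 4, 9, 14 and 17, and Q175;Tyrobp-KO 5, 11, 12, 13 and 16.

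Astrocytes take up glutamate and potassium released by neurons, move water through their endfeet on blood vessels, and are joined to each other by gap junctions. They are not myeloid cells and do not carry CD11b, but their thin processes wrap synapses and vessels, and both fragments and free RNA can stay with other cells when brain tissue is broken up. In bulk samples of this kind a larger number of astrocytes or fragments and more RNA per astrocyte cannot be told apart, and transcripts made by the microglia themselves are counted with the rest.

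The libraries held between 11260410 and 29771983 counts. Values below are normalized counts, that is counts scaled to a common library size with TMM factors of edgeR, and the astrocytic level of a sample is the geometric mean of the normalized counts of the 38 transcripts, each plus 1. The 20 microglial markers had levels between 9703 and 22288 in the 18 samples, 7.60 to 64.1 times the astrocytic level of the same sample. Tyrobp itself had between 3629 and 8793 normalized counts in the 10 samples with an intact gene and between 183 and 395 in the 8 samples of both deleted groups. No 2 samples of a group agreed within sampling noise, since even the closest pair (Q175;Tyrobp-KO 13 and 16) had a chi-square of 15.4 for each degree of freedom between its counts.

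The upstream bases of some identity genes are printed because the transcripts are described below as a set that moves together. Of the 38 genes, 32 had an entry in RefSeq's promoter table for GRCm38.p6, and of the 8 genes most often used to define astrocytes (Gfap, Aqp4, Aldh1l1, Slc1a2, Slc1a3, Gja1, S100b and Sox9) 4 had a window of 250 bases before a start site that holds no annotated exon and could be printed. They lie at chr11:102897201-102897450 on the minus strand for Gfap, chr15:8710808-8711057 on the minus strand for Slc1a3, chr10:56377050-56377299 on the plus strand for Gja1 and chr10:76253586-76253835 on the plus strand for S100b. Capitals mark matches on either strand to the letters TTCCNGGAA (a STAT motif), TGANTCA (AP-1), ACAATGG (SOX), CCAAT and TATAAA.
Gfap: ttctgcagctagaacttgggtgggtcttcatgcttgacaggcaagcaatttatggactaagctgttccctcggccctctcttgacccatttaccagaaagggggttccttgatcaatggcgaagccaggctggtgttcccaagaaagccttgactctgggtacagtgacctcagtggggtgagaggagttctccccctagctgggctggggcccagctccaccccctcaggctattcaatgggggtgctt
Slc1a3: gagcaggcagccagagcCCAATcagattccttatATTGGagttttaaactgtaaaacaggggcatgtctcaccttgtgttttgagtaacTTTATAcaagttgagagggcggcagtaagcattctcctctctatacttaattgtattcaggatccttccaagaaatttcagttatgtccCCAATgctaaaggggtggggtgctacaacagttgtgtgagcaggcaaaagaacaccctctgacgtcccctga
Gja1: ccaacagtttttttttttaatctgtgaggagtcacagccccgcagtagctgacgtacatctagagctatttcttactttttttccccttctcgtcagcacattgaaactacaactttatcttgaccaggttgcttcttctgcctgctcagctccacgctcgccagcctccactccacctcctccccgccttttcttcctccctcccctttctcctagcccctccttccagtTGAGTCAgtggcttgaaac
S100b: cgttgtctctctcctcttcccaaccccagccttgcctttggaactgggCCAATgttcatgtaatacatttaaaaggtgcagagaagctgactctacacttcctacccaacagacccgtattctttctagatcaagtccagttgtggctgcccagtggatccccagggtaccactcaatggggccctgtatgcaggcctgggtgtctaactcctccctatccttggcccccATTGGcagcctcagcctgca
None of these letters stood in the Gfap window. Slc1a3 held CCAAT at 3 places and TATAAA once, S100b held CCAAT at 2 places, 202 and 20 bases before its start, and Gja1 held the AP-1 letters 19 bases before its start. Over the 32 genes, CCAAT stood in the windows of 14 (43.8%, against 37.5% of the 27025 genes of the table), TATAAA in 6 (18.8% against 14.3%), the AP-1 letters in F3 and Gja1 (6.25% against 7.82%), the STAT letters in Aldoc and Prodh (6.25% against 1.09%) and the SOX letters in none (0% against 3.46%). These are matches of letters in short windows, and no binding was measured.

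The astrocytic level was 427, 385, 346, 532 and 497 in the WT samples, 335, 587 and 1640 in Tyrobp-KO, 973, 730, 720, 1761 and 715 in Q175, and 1455, 334, 342, 960 and 911 in Q175;Tyrobp-KO. Every Q175 sample lay above every WT sample, whereas both groups without Tyrobp held samples below the lowest WT sample as well as samples above the highest. WT samples averaged 437 ± 76.8 (SD, n = 5) and Q175 samples 980 ± 450 (SD, n = 5). Tyrobp-KO averaged 854 ± 692 (SD, n = 3), a spread nearly as large as the mean, and Q175;Tyrobp-KO averaged 801 ± 473 (SD, n = 5). The order of the group medians was Q175;Tyrobp-KO (911), Q175 (730), Tyrobp-KO (587) and WT (427), and the ranges of neighbours in this order overlapped in each case. Within sex, the 1 WT female (532) lay below all 4 Q175 females (715 to 1761) and the 4 WT males (346 to 497) below the 1 Q175 male (720). In Q175;Tyrobp-KO, the females had 1455 and 911 and the males 334, 342 and 960.

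**Figure D1:**
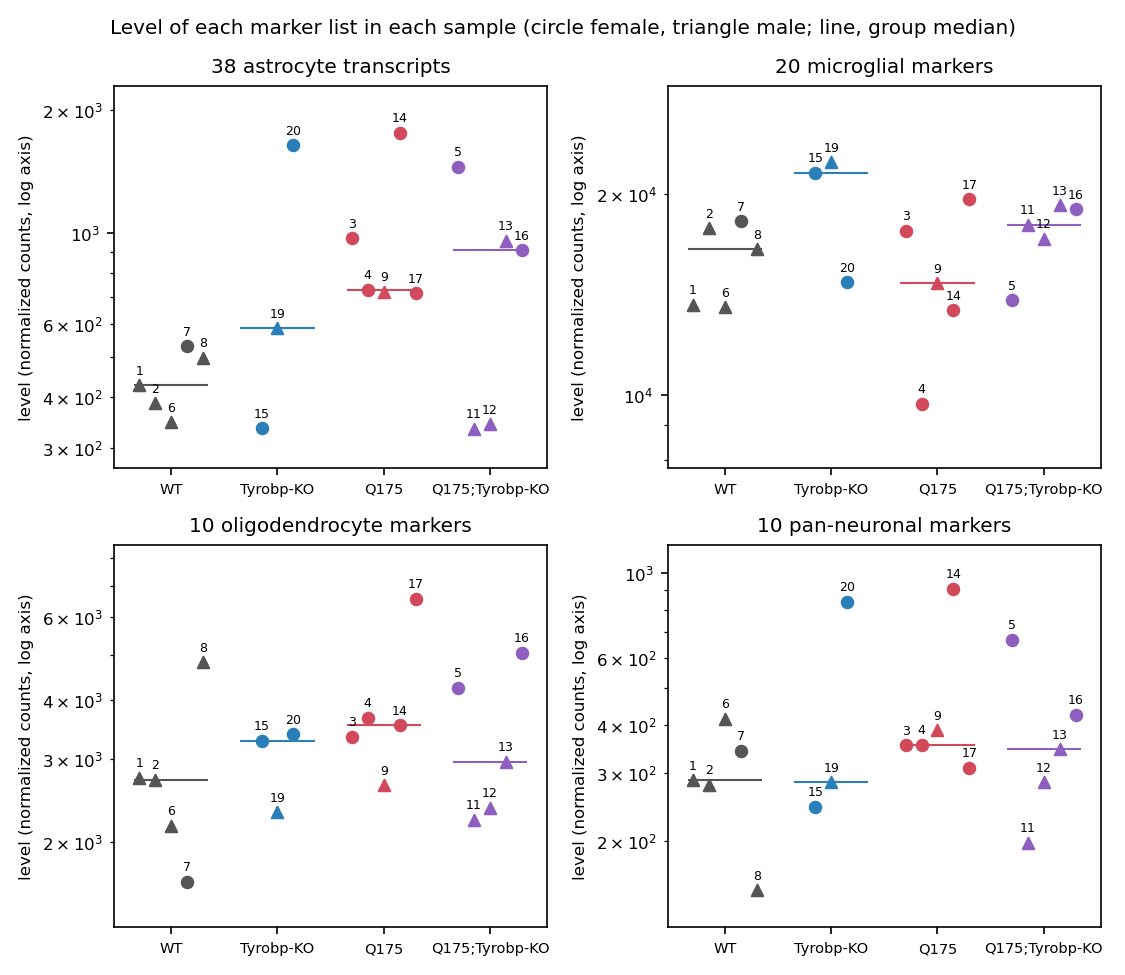
Level of 4 marker lists (vertical log axes, geometric mean of normalized counts plus 1) in the 18 samples by group, with circles for females, triangles for males, sample numbers above the points and a line at each group's median. The 5 Q175 samples lie between 715 and 1761 in astrocytic level, above the WT samples at 346 to 532, and the 3 highest samples in the first panel, Q175 14, Tyrobp-KO 20 and Q175;Tyrobp-KO 5, are also the 3 highest in the pan-neuronal panel.

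Markers of other brain cells moved with the astrocytic level in some samples. The 3 samples highest in astrocytic level, Q175 14, Tyrobp-KO 20 and Q175;Tyrobp-KO 5, were also the 3 highest in the level of the 10 pan-neuronal markers, with 908, 840 and 669 against 149 to 427 in the other 15. Their microglial levels ranked 17, 12 and 14 among the 18, and the TMM factors of Tyrobp-KO 20 and Q175 14, which were 0.788 and 0.873, were the lowest of the series. The 10 oligodendrocyte markers did not follow this order, as the highest oligodendrocyte level, 6567, was in Q175 17, which ranked 9 in astrocytic level. The part of other cell types in the astrocytic level was not tested beyond a fit given below. That fit held the oligodendrocyte and pan-neuronal levels combined into a single term.

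Compared per length of exon, the transcripts differed widely in level and most stood far below microglial genes. The median over the 18 samples in RPKM, reads scaled to exonic length and library size, was highest for Glul, glutamine synthetase, with 263, followed by Cpe (54.8), Slc1a2 (50.2) and Ndrg2 (43.2), and lowest for Prodh, proline dehydrogenase, with 0.831. The median of these values was 6.90 RPKM over the 38 transcripts and 438 RPKM over the 20 microglial markers, of which Itgam, the gene of CD11b, had the lowest with 25.3 RPKM. In RPKM, the median of Glul was above that of 7 of the microglial markers. Glul is not made by astrocytes alone. In these bulk samples neither its counts nor those of the other transcripts can be assigned to a cell type. Libraries were not strand-specific, and exons of 8 of the 38 genes (Aldh1l1, Slc1a2, Glul, Slc25a18, Slc7a10, Fgfr3, Gpc5 and Arhgef26) are overlapped by another gene, whose reads cannot be told apart from theirs.

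The transcripts varied together but not to the same degree. The highest sample had 2.17 times the counts of the lowest for Hepacam and 17.3 times for Aldoc, and up to 23.1 times over the 38, with a median of 7.54. The SD of log2 values over the 18 samples had a median of 0.82 for the 38 transcripts, against 0.45 for all genes with at least 1 CPM in a sample, and 36 of the 38 lay above that median, Glul (0.44) and Hepacam (0.35) being the others. When each transcript was taken relative to the median of the other 37 in the same sample, its SD became smaller for 33 of the 38, with a median of 0.47, and fell lowest for Prex2, a Rac exchange factor, from 0.98 to 0.20. The SD did not become smaller for Slc1a3, Glul, Hepacam, Slc39a12 and Mfge8. Of the 38 transcripts, 19 were highest in Q175 14, 12 in Tyrobp-KO 20 and 5 in Q175;Tyrobp-KO 5, and 12 were lowest in WT 6 and 10 in Tyrobp-KO 15.

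**Figure D2:**
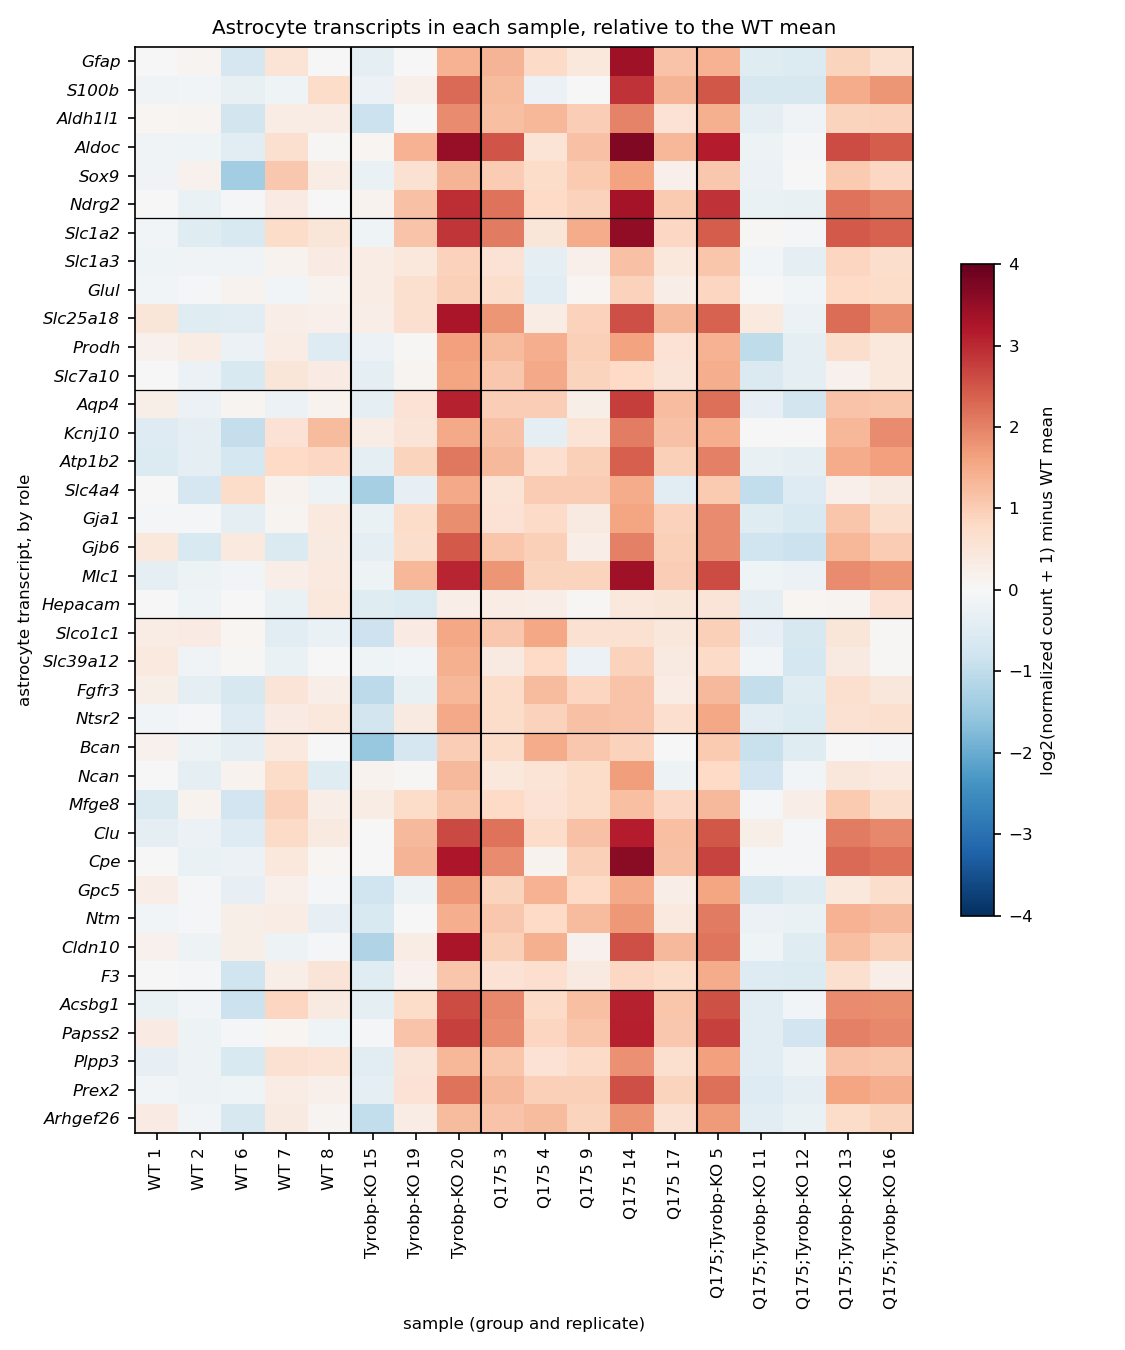
The 38 astrocyte transcripts (rows, by role) in the 18 samples (columns, by group), coloured by log2(normalized count + 1) minus the mean of the 5 WT samples. Q175 14, Tyrobp-KO 20 and Q175;Tyrobp-KO 5 are red in nearly every row, Q175;Tyrobp-KO 11 and 12 resemble the WT samples, and Hepacam, Glul and Slc1a3 vary least.

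The first comparison, Q175 against WT, asked what the expanded Htt allele does to the transcripts recovered with microglia. All 38 astrocyte transcripts were higher in Q175, by log2 fold changes between 0.31 for Hepacam and 2.31 for Aldoc with a median of 1.13, where the median of the 18266 genes tested was -0.02. None passed an FDR of 0.1 in the quasi-likelihood test of edgeR, in which 0% of all genes tested were called, and the smallest adjusted p among the 38 was 0.345. At an unadjusted p under 0.05, 34 of the 38 were higher, against 5.47% of all genes. The Wald test of DESeq2 at the same FDR called 23 of the 38, all higher, against 1.26% of all genes called higher. In 13 of the 38 every Q175 sample lay above every WT sample, which held for 0.788% of all genes. The median was 0.91 without Q175 14, and 28 transcripts then had an unadjusted p under 0.05, against 3.34% of all genes higher in that fit. With sex as a term the median was 0.94, all 38 stayed higher and 19 had an unadjusted p under 0.05, against 1.14% of all genes.

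Identity markers of astrocytes came first. Gfap, the intermediate filament protein of astrocytes (11:102887336-102900912 in GRCm38), had 224, 245, 141, 329 and 227 normalized counts in WT and 583, 379, 300, 2377 and 500 in Q175. Its Q175 values overlapped those of WT in 1 of 25 pairs of samples, and Q175 14 stood far above the other 4. The log2 fold change was 1.87 ± 0.52 (SE, with adjusted p 0.364 with edgeR, 0.0375 with DESeq2). Aldh1l1, a folate enzyme used as a marker of astrocytes in all brain regions, had 233, 239, 132, 270 and 270 in WT and 507, 558, 441, 883 and 333 in Q175. The groups did not overlap and the log2 fold change was 1.27 ± 0.27 (SE, with adjusted p 0.345 with edgeR, 0.0127 with DESeq2). For S100b, a calcium-binding protein, WT samples had 382, 389, 342, 370 and 699.7 and Q175 samples 1005, 357, 412, 3146 and 1078. These groups overlapped, with Q175 4 and 9 inside the WT range, and the log2 fold change was 1.50 ± 0.52 (SE, with adjusted p 0.499 with edgeR, 0.175 with DESeq2). Sox9, a transcription factor of glia, had 111, 139, 46, 258 and 149 in WT and 247, 206, 253, 373 and 143 in Q175, which overlapped, with a log2 fold change of 0.82 ± 0.38 (SE, with adjusted p 0.795 with edgeR, 0.633 with DESeq2).

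Several of these values rested on Q175 14. Without it the log2 fold change was 0.94 for Gfap, 0.74 for S100b, 1.26 for Slc1a2, 0.92 for Aqp4 and 0.26 for Slc1a3, of which the last 3 are described below. With sex as a term Gfap was at 1.07 and S100b at 0.93.

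The largest difference of the 38 was that of Aldoc, the aldolase isoform of brain glia, with 762, 739, 625, 1309 and 861 normalized counts in WT and 4721, 1211, 1875, 10818 and 2070 in Q175. Only Q175 4 lay inside the WT range, and the log2 fold change was 2.31 ± 0.53 (SE, with adjusted p 0.345 with edgeR, 0.0103 with DESeq2). Ndrg2, an astrocyte-enriched hydrolase-fold protein, had 1462, 1241, 1449, 1873 and 1494 in WT and 6766, 2582, 2853, 14871 and 3081 in Q175, with no overlap, and a log2 fold change of 2.04 ± 0.45 (SE).

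Among genes that handle glutamate and other amino acids, Slc1a2 (GLT-1), the main glutamate transporter of the forebrain, had 6568, 5064, 4630, 11908 and 9961 normalized counts in WT and 29871, 9939, 19850, 83568 and 12535 in Q175. Q175 4 fell within the WT range and the others above it, and the log2 fold change was 2.07 ± 0.54 (SE, with adjusted p 0.345 with edgeR, 0.0167 with DESeq2). Slc1a3 (GLAST), the second astrocyte glutamate transporter, showed a smaller difference, with 2840, 2902, 2914, 3505 and 3988 in WT and 4806, 2452, 3707, 7202 and 4259 in Q175. It had a log2 fold change of 0.51 ± 0.26 (SE; unadjusted p 0.0730, adjusted p 0.874 with edgeR) and the lowest sample of both groups was Q175 4. Glul had 12982, 13801, 15455, 12957 and 15578 in WT and 23008, 10316, 14805, 26966 and 16848 in Q175, with a log2 fold change of 0.41 ± 0.25 (SE; unadjusted p 0.130, adjusted p 0.951 with edgeR), and its groups overlapped. Slc25a18, a mitochondrial glutamate carrier, Prodh and Slc7a10, a transporter of small neutral amino acids, had log2 fold changes of 1.59, 1.21 and 0.96, and Prodh and Slc7a10 did not overlap between the groups.

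Of the 8 genes of water, ions and gap junctions, Aqp4, the water channel of endfeet, had 375, 270, 348, 271 and 352 normalized counts in WT and 636, 636, 378, 2170 and 758 in Q175. The groups did not overlap, although Q175 9 lay just above the highest WT sample, and the log2 fold change was 1.54 ± 0.39 (SE, with adjusted p 0.345 with edgeR, 0.0324 with DESeq2). Gja1 (connexin 43), the main gap junction protein of astrocytes, had 665, 648, 537, 734 and 890 in WT and 1016, 1161, 886, 2061 and 1302 in Q175, of which Q175 9 was just under the highest WT sample. Its log2 fold change was 0.92 ± 0.24 (SE, with adjusted p 0.345 with edgeR, 0.0644 with DESeq2). Mlc1, a membrane protein of astrocyte endfeet, had the largest log2 fold change of this group, 1.98 ± 0.47 (SE), with 199 to 341 in WT and 476 to 2723 in Q175. Hepacam (GlialCAM), which binds Mlc1 at cell contacts, had the smallest of all 38, 0.31 ± 0.17 (SE; unadjusted p 0.0966), with 677 to 1098 in WT and 837 to 1145 in Q175. Gjb6 (connexin 30), Atp1b2, a sodium pump subunit, Kcnj10 (Kir4.1), a potassium channel, and Slc4a4, a bicarbonate transporter, had log2 fold changes of 1.13, 1.28, 0.92 and 0.80.

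The 9 matrix, secreted and adhesion proteins were all higher at an unadjusted p under 0.05, against 5.47% of all genes. Cpe, carboxypeptidase E, and Clu, clusterin, had the largest log2 fold changes, 2.11 ± 0.54 and 1.92 ± 0.44 (SE), and F3, tissue factor, the smallest, 0.61 ± 0.23 (SE). Bcan, the matrix proteoglycan brevican, had 2071, 1610, 1443, 2403 and 1815 normalized counts in WT and 3087, 5105, 3908, 3452 and 1811 in Q175, and differed from most others in that its highest sample was Q175 4 and not Q175 14. Its log2 fold change was 0.91 ± 0.24 (SE, with adjusted p 0.345 with edgeR, 0.0682 with DESeq2). Gpc5, a glypican, and Ntm, an adhesion protein, did not overlap between the groups and had log2 fold changes of 1.04 and 1.13, and those of Ncan, Mfge8 and Cldn10 were 0.73, 0.75 and 1.53. The 4 other transporters and receptors had log2 fold changes between 0.50 for Slc39a12, a zinc transporter, and 0.93 for Ntsr2, a neurotensin receptor, with 0.87 for Fgfr3 and 0.90 for Slco1c1, a thyroid hormone transporter. Slco1c1 and Ntsr2 did not overlap between the groups. The 5 lipid, sulfate and signalling enzymes lay between 1.01 for Plpp3, a lipid phosphatase, and 1.92 for Papss2, which makes the sulfate donor of sulfation, with 1.81 for Acsbg1, 1.52 for Prex2 and 1.19 for Arhgef26, and of these Papss2, Prex2 and Arhgef26 did not overlap.

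**Figure D3:**
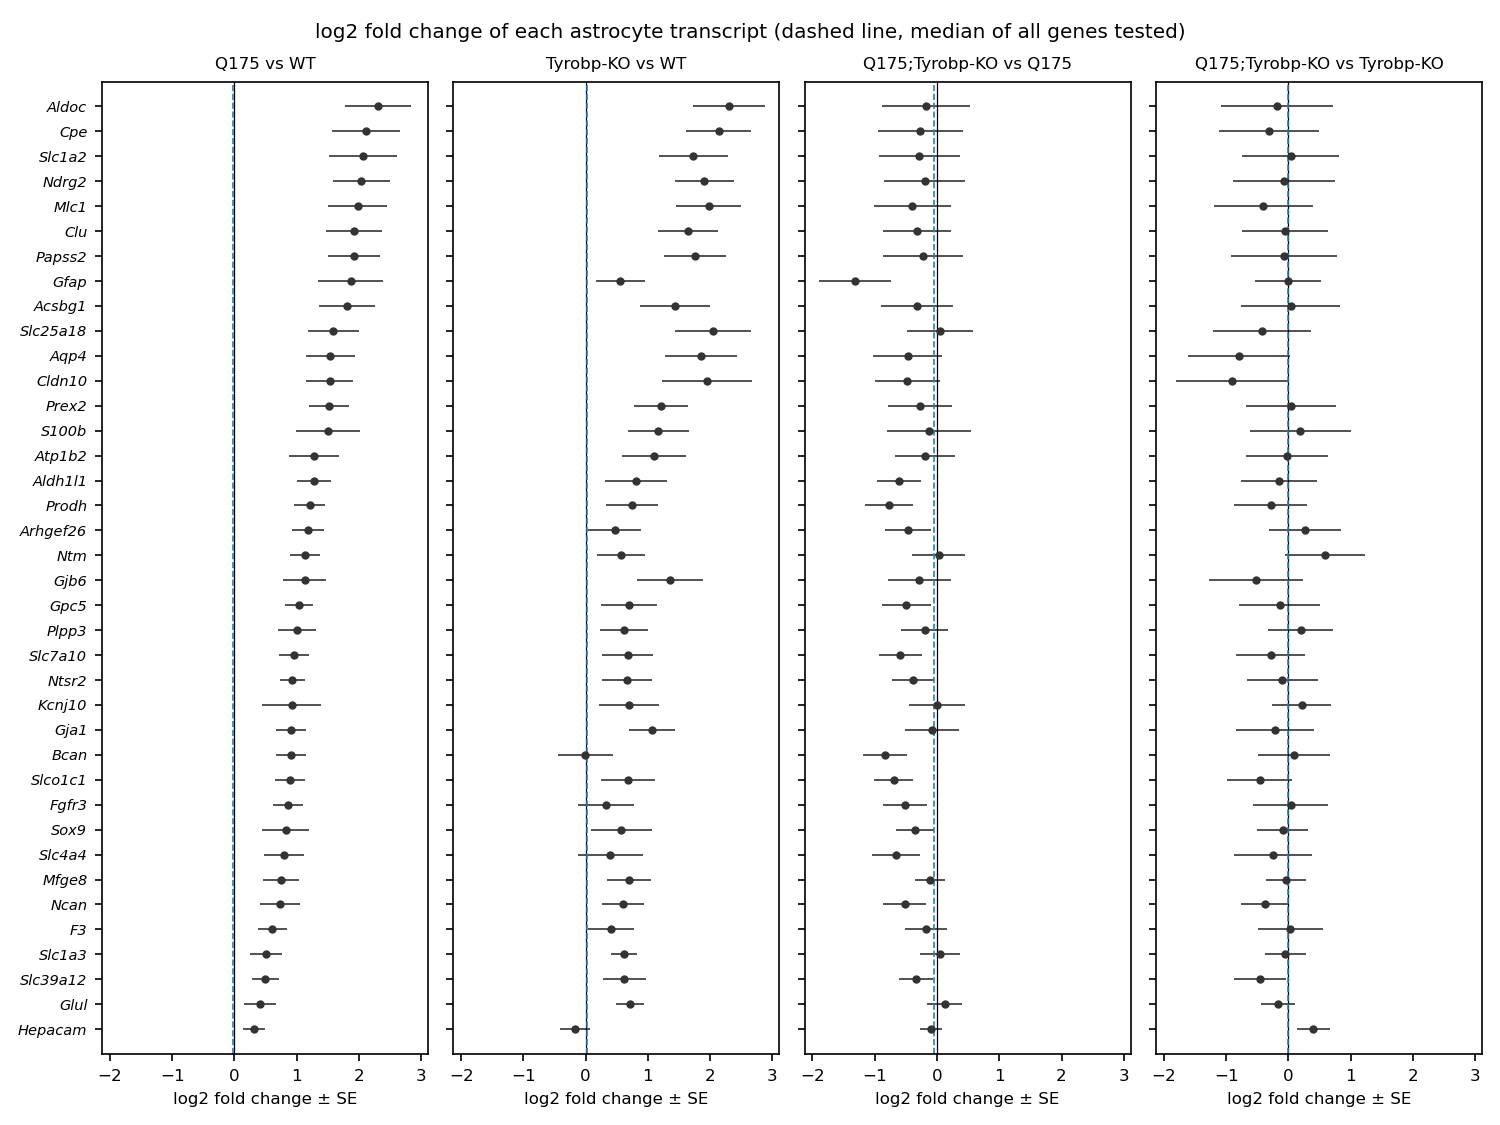
log2 fold change (horizontal axis) with its SE (bars) of each of the 38 transcripts in 4 comparisons, ordered by the first, with the median of all genes tested as a dashed line. All 38 points lie right of 0 in Q175 against WT, from 0.31 to 2.31, while those of Q175;Tyrobp-KO against Q175 and against Tyrobp-KO lie on both sides of 0.

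Relative to the other transcripts of the set, Glul and Slc1a3 were the only 2 that separated Q175 from WT, both lower in Q175, with differences of -0.83 and -0.73 on the log2 scale. On the same scale 33.1% of all genes tested were lower without overlap, since genes that do not follow the astrocyte transcripts fall against them. Gfap did not separate the groups on this scale: its log2 value minus the median of the others lay between -1.27 and -0.54 in Q175 3, 4, 9 and 17, at 0.28 in Q175 14, and between -1.25 and -0.52 in WT.

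A second list of 24 astrocyte genes, which were not among the 38, had a median log2 fold change of 1.14 in Q175 against WT. All 24 were higher, 21 of them at an unadjusted p under 0.05, against 5.47% of all genes. DESeq2 called 10, against 1.26% of all genes called higher, and none passed with edgeR, which called 0% of all genes. This list too was chosen with earlier results of these samples known, so its direction is not independent evidence. Its highest samples, Tyrobp-KO 20, Q175;Tyrobp-KO 5 and Q175 14, were also those of the 38 transcripts. Slc6a11 (GAT-3), the GABA transporter of astrocytes, and Ppp1r3c, a regulator of glycogen synthesis, had log2 fold changes of 1.26 ± 0.49 and 2.38 ± 0.59 (SE). Lists of genes known to be induced in reactive astrocytes did not stand apart: 5 of 9 tested pan-reactive genes, 4 of 10 tested A1 genes and 4 of 7 tested A2 genes were higher, with medians of 0.09, -0.04 and 0.05. No gene of these 3 lists was higher at an unadjusted p under 0.05, while 1 A1 and 1 A2 gene were lower, as were 0.766% of all genes. Several of these genes are also expressed by microglia.

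Markers of other cells are given for the same comparison. The 10 oligodendrocyte markers were all higher with a median log2 fold change of 0.43, and their summed counts ran from 32412 to 81134 in WT and from 52238 to 118381 in Q175. The 8 OPC markers were all higher with a median of 0.58, 9 of 10 pan-neuronal markers were higher with a median of 0.35, and 10 of 10 medium spiny neuron markers were higher with a median of 0.68. The summed pan-neuronal counts ran from 3368 to 7086 in WT and from 6124 to 20489 in Q175. The microglial markers had a median of -0.08, with 6 of 20 higher, the endothelial markers -0.33, the mural markers 0.07 and the monocyte or neutrophil markers -0.30. The 5 tested markers of border-associated macrophages had a median of 1.05. The 6 tested ependymal or choroid plexus markers had a median of 3.21 and their summed counts ranged from 125 to 26450 within the Q175 group. No marker of these lists was at 0 in every WT or every Q175 sample. The log2 oligodendrocyte and pan-neuronal levels, each standardized over all samples, were averaged into a single term that was added to the model. Neither list was adjusted for on its own. The 38 astrocyte transcripts then had a median of 0.72, and 32 were higher. Of the 38, 10 had an unadjusted p under 0.05, against 1.66% of all genes higher in that fit. Gfap and Gja1 were at 0.19 and 0.20, Slc1a2 was at 1.08, and Aqp4, Slc1a3 and S100b were no longer higher.

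**Figure D4:**
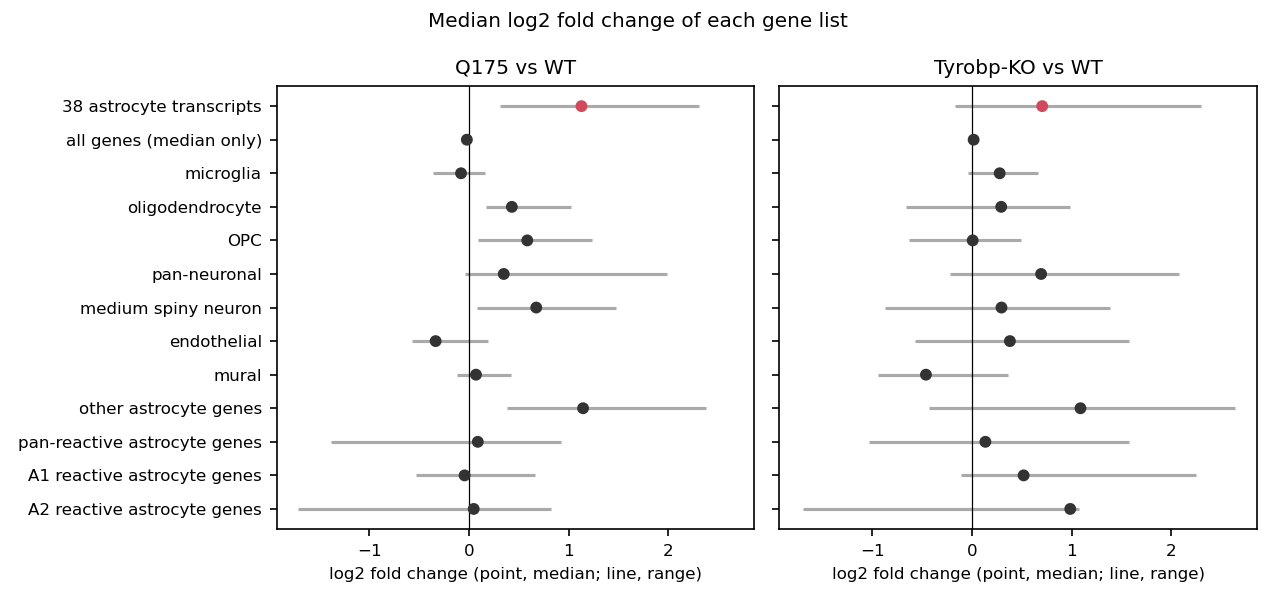
Median (point) and range (line) of the log2 fold changes of the 38 astrocyte transcripts and 11 further gene lists in Q175 against WT and in Tyrobp-KO against WT, with the median of all genes tested. In Q175 against WT both astrocyte lists have medians of 1.13 and 1.14, and the 3 lists of reactive astrocyte genes lie at 0.09, -0.04 and 0.05.

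The second comparison, Tyrobp-KO against WT, asked what the loss of Tyrobp does in mice without the Htt allele, and it shares the WT samples with the first. Of the 38 transcripts 36 were higher, with a median log2 fold change of 0.71 against 0.02 for the 18017 genes tested, from -0.17 for Hepacam to 2.30 for Aldoc. None passed an FDR of 0.1 with edgeR, which called 0.0222% of all genes, and the smallest adjusted p was 0.565. At an unadjusted p under 0.05, 17 of the 38 were higher, against 3.66% of all genes. DESeq2 called 6 of the 38 (Aldoc, Ndrg2, Glul, Mlc1, Cpe and Papss2), all higher, against 0.444% of all genes. Only Glul had every Tyrobp-KO sample above every WT sample, which is 1 of 38 where 1.2% of all genes were of that kind. The difference rested on Tyrobp-KO 20: without it the median was 0.10, 21 of the 38 were higher and 4 were so at an unadjusted p under 0.05, against 1.88% of all genes, and without Tyrobp-KO 15 the median was 1.06. With the combined oligodendrocyte and pan-neuronal level as a term the median was 0.35. Higher medians were also found in other lists. Of the pan-neuronal markers 9 of 10 were higher (median 0.69), and of the microglial markers 18 of 20 (0.28). The 4 tested border-associated macrophage and 6 monocyte or neutrophil markers were all higher, with medians of 0.87 and 0.94. Of 8 OPC markers 5 were higher (0.01), and of 6 tested mural markers 2 were (-0.46).

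Single transcripts show the weight of Tyrobp-KO 20. Gfap had 176, 225 and 595 normalized counts in Tyrobp-KO, with the first 2 inside the WT range, and a log2 fold change of 0.56 ± 0.39 (SE, with adjusted p 0.912 with edgeR). Aqp4 had 244, 476 and 2692 and a log2 fold change of 1.85 ± 0.58 (SE, with adjusted p 0.595 with edgeR). Slc1a2 had 6259, 15853 and 51335 and a log2 fold change of 1.73 ± 0.56 (SE, with adjusted p 0.610 with edgeR). In all 3 genes Tyrobp-KO 20 was the highest, Tyrobp-KO 15 was not above the WT range, and the groups overlapped. Glul had 17150, 22171 and 27224, all above the WT maximum of 15578, and a log2 fold change of 0.71 ± 0.22 (SE, with adjusted p 0.593 with edgeR, 0.0951 with DESeq2). Aldh1l1, S100b, Sox9, Slc1a3 and Gja1 had log2 fold changes of 0.81, 1.16, 0.57, 0.62 and 1.07.

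The balance within the set differed between Tyrobp-KO and WT in some transcripts in all 3 Tyrobp-KO samples, including Tyrobp-KO 15 with the lowest astrocytic level of its group. Relative to the median of the other transcripts, Aldoc, Ndrg2, Clu and Cpe were higher in Tyrobp-KO without overlap, by 1.11, 0.88, 0.77 and 1.004 on the log2 scale, a pattern found in 0.211% of all genes tested. Genes that do not follow the set fall against it in Tyrobp-KO 20, which makes this share small by construction. Aldoc was 1.83, 2.15 and 2.68 above the median of the others in Tyrobp-KO and between 0.71 and 1.56 above it in WT. Bcan and Fgfr3, a fibroblast growth factor receptor, were lower on this scale without overlap, with differences of -0.93 and -0.67, as were 2.45% of all genes. Bcan was 1.26 to 1.41 above the median of the others in Tyrobp-KO and 1.79 to 2.46 above it in WT. Shifts in the same direction were seen in the group means of Q175 and Q175;Tyrobp-KO for Aldoc, Ndrg2, Clu, Cpe, Bcan and Fgfr3. The mean for Aldoc was 1.11 in WT, 2.22 in Tyrobp-KO, 1.83 in Q175 and 2.16 in Q175;Tyrobp-KO. For Bcan it was 2.26, 1.33, 1.96 and 1.64 in the same order. The differences between Tyrobp-KO and WT rest on 3 Tyrobp-KO samples and were not tested.

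The third comparison, Q175;Tyrobp-KO against Q175, asked what the loss of Tyrobp does in the presence of the Htt allele. Here 33 of the 38 transcripts were lower and 5 higher, with a median log2 fold change of -0.30 against -0.05 for the 18059 genes tested. None passed an FDR of 0.1 with edgeR, which called 0.0111% of all genes, and DESeq2 called none. At an unadjusted p under 0.05, 3 of the 38 were lower (Gfap, Slco1c1 and Bcan), where 4.56% of all genes were. The direction of the median was not stable. It was 0.05 without Q175 14, with 20 of the 38 higher, and 0.03 with sex as a term, with 24 higher. It was -0.013 with the combined oligodendrocyte and pan-neuronal level as a term, with 16 higher, and -0.70 without Q175;Tyrobp-KO 5. A lower median was not particular to the astrocyte transcripts. The 10 oligodendrocyte and 10 pan-neuronal markers were all lower, with medians of -0.27 and -0.29. The 10 medium spiny neuron markers were all lower with a median of -1.06, and 7 of 8 OPC markers were, with -0.38. Of the 20 microglial markers 7 were lower and 13 higher, with a median of 0.08.

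Gfap had 594, 160, 154, 419 and 347 normalized counts in Q175;Tyrobp-KO against 583, 379, 300, 2377 and 500 in Q175. The groups overlapped, with medians of 347 and 500, and Q175 14 stood far above the other Q175 samples. The log2 fold change was -1.31 ± 0.58 (SE; unadjusted p 0.0418, adjusted p 0.533 with edgeR). Bcan had 3827, 992, 1304, 1810 and 1781 against 1811 to 5105, so that 4 of 5 samples lay below the lowest Q175 sample, with a log2 fold change of -0.84 ± 0.35 (SE; unadjusted p 0.0341, adjusted p 0.533 with edgeR). Slco1c1 had 370, 151, 122, 265 and 195 against 256 to 556, and a log2 fold change of -0.70 ± 0.31 (SE; unadjusted p 0.0438, adjusted p 0.533 with edgeR). The 4 genes with the largest log2 fold changes between Q175 and WT had values near the median of the set and below their SE here, which were -0.18 ± 0.70 for Aldoc, -0.27 ± 0.68 for Cpe, -0.28 ± 0.65 for Slc1a2 and -0.20 ± 0.65 for Ndrg2 (log2 fold change, SE). Aqp4, Aldh1l1, Slc1a3, Gja1, S100b and Sox9 had log2 fold changes of -0.47, -0.61, 0.05, -0.08, -0.13 and -0.35, all with an unadjusted p above 0.05.

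The group held samples of unlike kinds. In Q175;Tyrobp-KO 5, all 38 transcripts lay above the highest WT sample, in Q175;Tyrobp-KO 13 and 16 31 and 28 did, and in Q175;Tyrobp-KO 11 and 12 none did, while 13 and 14 transcripts lay below the lowest WT sample, as did 15.1% and 10.2% of all genes. The shares of all genes above the highest WT sample were 15.9%, 14.2%, 12.6%, 9.59% and 5.42% in Q175;Tyrobp-KO 5, 13, 16, 11 and 12. In Q175 the number of the 38 above the highest WT sample was 31, 22, 24, 37 and 30, where 12.8%, 20.8%, 9.78%, 19.6% and 13.6% of all genes were. In Tyrobp-KO it was 1, 16 and 37, where 11.1%, 10.6% and 21.6% of all genes were, and in Tyrobp-KO 15 another 13 of the 38 lay below the lowest WT sample, as did 20.9% of all genes. Q175;Tyrobp-KO 11 and 12 came from males, as did Q175;Tyrobp-KO 13.

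**Figure D5:**
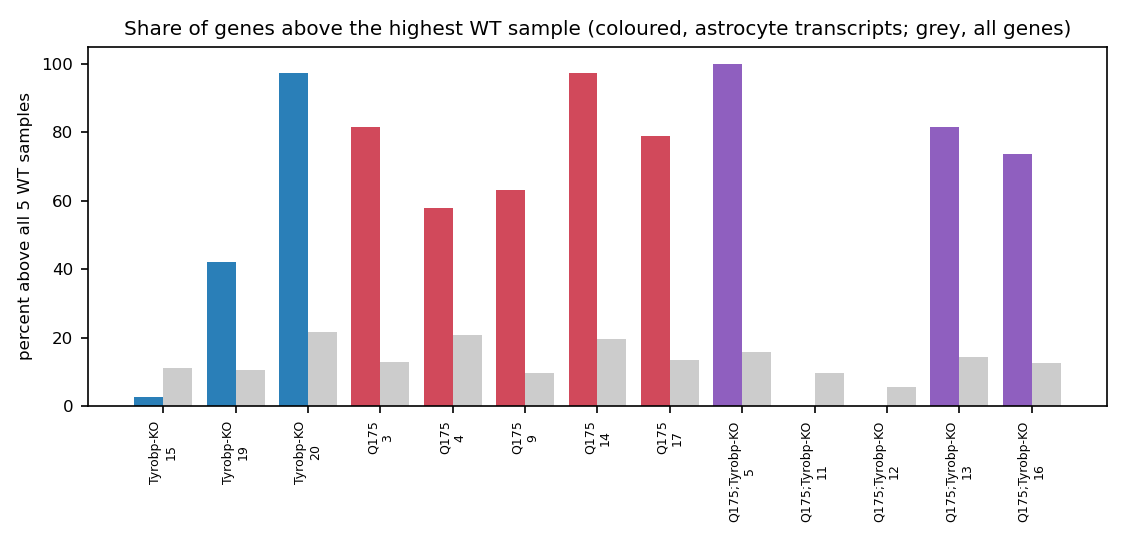
Percent of the 38 astrocyte transcripts (coloured bars) and of all genes with at least 1 CPM in a sample (grey bars) that lie above the highest of the 5 WT samples, in each of the 13 other samples. The coloured bars are between 57.9% and 97.4% in all 5 Q175 samples, and at 0% in Q175;Tyrobp-KO 11 and 12.

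In Q175;Tyrobp-KO against Tyrobp-KO, 26 of the 38 transcripts were lower and 12 higher, with a median log2 fold change of -0.08 against -0.01 for the 17723 genes tested. None passed an FDR of 0.1 with edgeR, in which 0% of all genes were called. None had an unadjusted p under 0.05, which 4.99% of all genes passed as higher and 8.24% as lower, and DESeq2 called none of the 38 and 3.84% of all genes. The log2 fold changes ran from -0.90 ± 0.91 for Cldn10 to 0.59 ± 0.64 for Ntm (SE). Leaving out Tyrobp-KO 20 turned the median to 0.82 with all 38 higher. Relative to the other transcripts, only Ntm separated the groups, higher in Q175;Tyrobp-KO by 0.57, as did 0.22% of all genes tested in that direction.

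The difference between the effect of the Htt allele with and without Tyrobp was tested as an interaction over all 4 groups. The log2 interaction term was negative for 37 of the 38 transcripts, with a median of -1.23 against 0.04 for the 18613 genes tested, and ran from -2.44 for Aldoc to 0.14 for Hepacam. None passed an FDR of 0.1 with edgeR, in which 0% of all genes were called, where the lowest adjusted p of the 38 was 0.716, and the Wald test of DESeq2 also called none of them. At an unadjusted p under 0.05, 12 of the 38 were lower, against 3.02% of all genes. These 12 included Gfap (-1.82 ± 0.80), Aqp4 (-2.28 ± 0.91) and Aldh1l1 (-1.38 ± 0.65, SE). Without Tyrobp-KO 20 the median was -0.44 and none of the 38 had an unadjusted p under 0.05. Without Q175 14 the median was -0.93 and 1 transcript remained under that p, and with sex as a term the median was -0.67 and none did. With the combined oligodendrocyte and pan-neuronal level as a term the median was -0.43 and 5 of the 38 were positive. In that fit none was lower at an unadjusted p under 0.05 and 1 was higher. Negative interaction terms were not particular to the astrocyte transcripts. In the fit without added terms, the 10 medium spiny neuron and 10 pan-neuronal markers were all negative, with medians of -1.23 and -0.96. The 5 tested border-associated macrophage markers were all negative too (-1.58). Of the 20 microglial markers 12 were negative and 8 positive, with a median of -0.09.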

How the data were processed

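Striatal microglia of adult mice were isolated with CD11b beads after mechanical dissociation, and low-input libraries without strand information were sequenced. The labels give 2 striata per sample and the study's methods 1. The authors aligned the reads with STAR and counted them with featureCounts, and the deposited values are counts, whole numbers per Ensembl gene without normalization. The methods name GRCm38, while the labels name a human build, and the identifiers are those of GENCODE M21 for GRCm38, which gave all symbols. The table has 2 further columns that match no sample in the labels and were not used.

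Counts were normalized with TMM of edgeR 4.0.16 in R 4.3.3. The quasi-likelihood test was run on the groups of each comparison alone, over genes that reached 1 CPM in 1 or more of their samples, at a Benjamini-Hochberg FDR of 0.1 over all genes tested. Nothing in the labels says whether samples are separate animals or pools, while the study's methods describe dissociation of the striata of each mouse. The p-values measure the spread between these samples. Alternatives were DESeq2 1.42.0 (the study's tool), other scalings and filters, robust fitting, 1 fit over all groups and leaving out each sample. Further fits had as a term either sex or a combined level. The combined level was the mean of the log2 oligodendrocyte and pan-neuronal levels, each standardized over all samples. edgeR and DESeq2 fits were tested on simulated data. The lowest normalized count of any of the 38 transcripts in a sample was 27.3 (Slc25a18), at total counts of 11260410 to 29771983.

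The 38 transcripts and all gene lists were chosen with earlier results of these data known. All 38 could be named. Full statistics in Q175 against WT are given for 8 defining genes and for Aldoc, Glul and Bcan. The others are given in part, also where they were called or separated groups relative to the other transcripts. Examples from the others were chosen by the size of their difference after their values were seen. A value relative to the others is log2(normalized count + 1) minus the median of the other 37. RPKM used TMM library sizes and exonic lengths of GENCODE M21. The bulk tissue and human data of the study were not analysed here.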

Additional observations from a re-analysis of the deposited data

Results flagged for a closer look

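Values that stood apart within a group of 5 samples were looked for by Dixon's criterion, a gap to the nearest sample of more than 0.71 of the group's range. The astrocytic level and the 38 transcripts were searched in WT, Q175 and Q175;Tyrobp-KO, which is 117 groups of values. The criterion marks about 1 in 20 groups of normally distributed values. It was applied here to values without log transformation, so the share that chance would mark is not known. The criterion marked 13 values, of which 10 were in Q175 14. In that sample the astrocytic level was 1761 and the normalized counts were 2377 for Gfap, 3146 for S100b, 83568 for Slc1a2, 2170 for Aqp4, 1958 for Atp1b2, 2723 for Mlc1, 19862 for Cpe, 460 for Papss2 and 3794 for Prex2, each the highest of the Q175 group. The others were S100b in WT 8 with 699.7 normalized counts, the highest of its group, Aldh1l1 in WT 6 with 132, the lowest of its group, and Bcan in Q175;Tyrobp-KO 5 with 3827, the highest of its group. These 38 transcripts vary together, so that the 10 values in Q175 14 are not independent of each other.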

How the results depend on the processing

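The number of the 38 transcripts called at an FDR of 0.1 was 0 in every comparison with edgeR under each alternative run, whereas DESeq2 called 23 in Q175 against WT and 6 in Tyrobp-KO against WT. In Q175 against WT the median log2 fold change stayed between 0.72 and 1.26 under all alternatives, and all 38 were higher except with the oligodendrocyte and pan-neuronal levels as a term, where Aqp4 was at -0.053, Slc1a3 at -0.039 and S100b at -0.43, with 32 higher. Under the microglial marker scaling the median of all genes moved by more than 0.1 in 4 comparisons, to 0.09 in Q175 against WT (38 transcripts 1.26), to -0.32 in Tyrobp-KO against WT (0.57), to -0.31 in Q175;Tyrobp-KO against Q175 (-0.53) and to 0.14 in Q175;Tyrobp-KO against Tyrobp-KO (-0.03), and under total count scaling to 0.08 in Q175;Tyrobp-KO against Q175 (-0.15) and to 0.15 for the interaction (-0.92). Total count scaling turned the median in Q175;Tyrobp-KO against Tyrobp-KO to 0.08 (all genes 0.07), sex as a term turned it to 0.09, and leaving out Q175;Tyrobp-KO 11 or 12 to 0.10 or 0.08. Leaving out 1 sample gave medians from 0.91 to 1.20 in Q175 against WT, from 0.10 to 1.06 in Tyrobp-KO against WT, from -0.70 to 0.05 in Q175;Tyrobp-KO against Q175, from -0.47 to 0.82 in Q175;Tyrobp-KO against Tyrobp-KO and from -1.64 to -0.44 for the interaction. The combined oligodendrocyte and pan-neuronal level as a term gave medians of 0.35 in Tyrobp-KO against WT, -0.013 in Q175;Tyrobp-KO against Q175 and -0.43 for the interaction. The cause of these shifts was not tested. No paired analysis was possible because the groups share no replicate number.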
